A study of Mus musculus with 4 samples.

Results

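The genes read here were 9 members of the complement system in cells from fine needle aspirates of mouse liver. They were the C1q chains C1qa, C1qb and C1qc, the components C3 and C4b, the alternative pathway factors Cfp (properdin) and Cfb (factor B), and the anaphylatoxin receptors C3ar1 and C5ar1. They were chosen by gene symbol from a feature list of 33696 genes, and all 9 were present in that list and had UMIs in every library. Levels were ranked among macrophages, monocytes, dendritic cells, neutrophils, B cells and T cells, not hepatocytes, of which few were recovered. Of these classes, macrophages had the highest mean level of 7 of the 9, monocytes that of C3 and neutrophils that of C5ar1.

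Complement is a cascade of plasma proteins that marks microbes, immune complexes and dying cells for removal. C1q, assembled from the products of C1qa, C1qb and C1qc, binds such surfaces and starts the classical pathway, in which C4 and then C3 are cleaved and deposited. Factor B and properdin form and stabilise the alternative pathway convertase, which amplifies C3 cleavage, and the fragments C3a and C5a are sensed through C3ar1 and C5ar1. In the liver hepatocytes are the known source of most circulating components, whereas C1q and properdin are known as products of myeloid cells.

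Libraries came from 2 groups of 3 male C57BL/6J mice, 7 weeks old when feeding began. All animals received the FPC diet of fructose, palmitate, cholesterol and trans-fat. Until week 24 one group ate it with 0.05% cholesterol and the other with 1.25%, and from week 24 to week 32 both ate it with 0.05%. At each time fine needle aspirates (FNA) from 4 lobes of the 3 mice of a group were pooled into 1 library. P-LC24 and P-HC24 are the low and high cholesterol groups at week 24 (Prog), and I-LC32 and I-HC32 are the same groups at week 32 (Int). No library came from mice without the FPC diet, and each condition was 1 pool, so no test between conditions was possible.

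Cell classes were gated on raw UMIs (unique molecular identifiers, 1 per captured transcript) of marker genes, none of which is a complement gene. After filtering, 4930, 6532, 6978 and 6919 cells remained (P-LC24, then P-HC24, then I-LC32, then I-HC32), with 38508753 to 77016619 UMIs per library, and 17 to 41 barcodes were shared between any pair of libraries. Macrophages numbered 32, 378, 53 and 567 cells in the same order, monocytes 138, 149, 181 and 73, dendritic cells 36, 40, 65 and 55, neutrophils 128, 120, 31 and 22, and B cells 3108, 4284, 4653 and 4542. The macrophages carried Adgre1, the F4/80 antigen, in 99.5% to 100% of cells. Clec4f, a defining gene of resident liver macrophages (Kupffer cells), had UMIs in 1 of 32 macrophages of P-LC24 and in 0 of 378, 0 of 53 and 0 of 567 of the other libraries, which allows up to 0.794%, 5.66% and 0.529% of cells with a UMI and does not limit the cells that express it. Gata6, a transcription factor known from peritoneal macrophages, was detected in 90.6%, 70.9%, 79.2% and 82.0% of them. Of the other gate markers, Cd5l was detected in 94.3% to 100% of macrophages and Prg4 in 93.8% to 99.6%. Alox15 was found in 92.5% to 99.6%, Ltbp1 in 92.5% to 99.3%, Mertk in 73.6% to 96.9% and Timd4 in 15.6% to 62.1%. Marco, Cd163 and Folr2 were each found in at most 7.55% of macrophages of any library. The class is therefore called macrophage by its gate only.

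Levels are given as CPM, the UMIs of a gene per 1000000 UMIs of all cells of a class in a library, and libraries are always listed in that same order. The kit counts transcript 3′ ends, so a level was compared between classes and libraries for the same gene and not between genes. Differences between classes were tested over the 4 libraries with the quasi-likelihood test of edgeR, with Benjamini-Hochberg adjustment over 11087 genes. Library was a term, so these p-values measure the spread of class levels left after it, pooled over all classes. They cover 4 libraries from 2 groups of mice only. T cells, taken as a class that should hold little of the members, served as a background for free RNA. Whether T cells make any member themselves was not tested. The CPM of a member in T cells was 0% to 9.34%, 0.799% to 2.52%, 0.823% to 4.66% and 1.22% to 10.0% of its CPM over all kept cells. For C1q this background is not free RNA alone. In P-LC24, 1 of 995 T cells held 47.4% of the T cell C1q UMIs, and in P-HC24, 2 of 1038 held 49.4%.

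The C1q chains were highest in macrophages in every library. C1qa (chromosome 4, 136623223 to 136626161 on the minus strand of GRCm39) lies next to C1qc (136616466 to 136620376) and C1qb (136606009 to 136613511), all protein coding. C1qa stood at 1461, 2200, 2284 and 2282 CPM in macrophages, C1qb at 2167, 3075, 3317 and 3096, and C1qc at 1689, 2152, 2088 and 2130. P-LC24 was the lowest library for each chain, and the other libraries lay close together.

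In monocytes the levels were 62.3, 323, 65.6 and 180 CPM for C1qa, 109, 480, 151 and 421 for C1qb, and 58.0, 207, 48.5 and 111 for C1qc. Both high cholesterol libraries were above both low cholesterol libraries for every chain in monocytes, and no monocyte library reached the lowest macrophage library. Macrophages exceeded monocytes by a log2 difference of 4.50 ± 0.68 (SE) for C1qa, 4.02 ± 0.50 for C1qb and 4.89 ± 0.54 for C1qc, with edgeR adjusted p = 4.07e-05, 2.81e-06 and 7.70e-07. Dendritic cells followed with 68.1 ± 83.8 CPM of C1qa, 126 ± 98.0 of C1qb and 34.3 ± 33.0 of C1qc (SD, n = 4), against 3.62 ± 3.39, 6.34 ± 5.24 and 2.50 ± 2.18 in T cells. Neutrophils and B cells lay at or near the T cell level for all 3 chains.

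The chains varied together from cell to cell. All 3 chains were detected in 100%, 98.1%, 96.2% and 98.8% of macrophages. Across macrophages of a library, Spearman correlations between per-cell CPM of the chains ran from 0.49 to 0.84 with a median of 0.72 over 12 pairs of chain and library, while pairs that held any other member ran from -0.40 to 0.49 with a median of 0.04 over 132 pairs. These values describe cells that share a library and a depth. C1qb made up 40.8%, 41.4%, 43.1% and 41.2% of macrophage C1q UMIs, C1qa 27.5%, 29.6%, 29.7% and 30.4%, and C1qc 31.8%, 29.0%, 27.2% and 28.4%.

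Because the chains moved together, the promoters of C1qb and C1qc are shown, with that of C5ar1, which shares a motif with them. The 250 bases before the RefSeq start (GRCm38.p6, minus strand, 5′ to 3′) were listed for 6 of the 9 members and not for C1qa, C4b and Cfb. The heptamer AGGAAGT, a core bound by ETS-family factors such as the myeloid factor PU.1, was searched on both strands. It occurred before C1qb (chr4:136886201-136886450), C1qc (chr4:136892915-136893164) and C5ar1 (chr7:16259339-16259588), in each case as its reverse complement ACTTCCT, which is in capitals.
C1qb: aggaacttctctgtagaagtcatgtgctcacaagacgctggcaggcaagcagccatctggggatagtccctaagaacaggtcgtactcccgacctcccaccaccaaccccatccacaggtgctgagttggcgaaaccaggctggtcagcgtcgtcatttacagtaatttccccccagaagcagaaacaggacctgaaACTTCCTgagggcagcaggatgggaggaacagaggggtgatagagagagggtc
C1qc: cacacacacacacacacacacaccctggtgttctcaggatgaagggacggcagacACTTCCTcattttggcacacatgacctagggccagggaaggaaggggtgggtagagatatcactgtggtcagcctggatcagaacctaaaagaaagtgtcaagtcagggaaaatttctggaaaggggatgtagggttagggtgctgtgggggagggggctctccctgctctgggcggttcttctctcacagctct
C5ar1: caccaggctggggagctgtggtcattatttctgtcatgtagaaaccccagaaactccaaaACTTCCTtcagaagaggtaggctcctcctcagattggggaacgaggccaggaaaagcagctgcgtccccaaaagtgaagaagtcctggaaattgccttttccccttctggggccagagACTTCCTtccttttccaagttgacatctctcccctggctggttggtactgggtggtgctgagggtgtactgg
The match began 53 bases before the start of C1qb, 195 before that of C1qc, and 190 and 72 before that of C5ar1. The heptamer was present in 2525 of 32851 promoters of the same length (7.69%), and the windows of C3, Cfp and C3ar1 held none. A match in such a window is a run of letters and was not tested as a binding site.

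**Figure D1:**
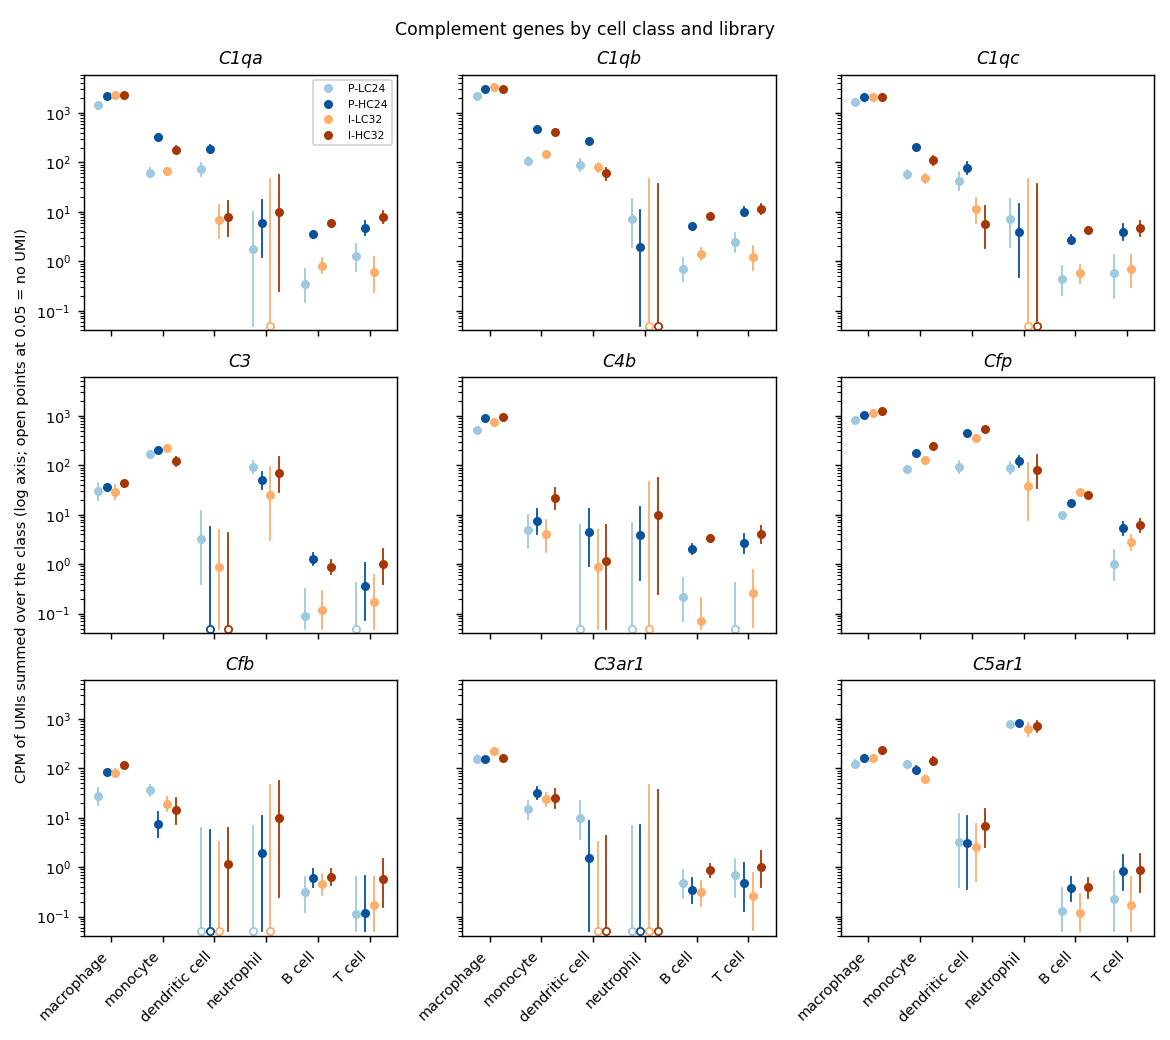
Level of each member in CPM (log axis) for the 6 cell classes, with 1 point per library, vertical lines for exact Poisson 95% intervals of counting error and open points where no UMI was found. Macrophages are the highest class in every library for the C1q chains, C4b, Cfp and C3ar1 and in all but P-LC24 for Cfb, monocytes for C3 (122 to 225 CPM) and neutrophils for C5ar1 (618 to 822 CPM).

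The C1q of monocytes and dendritic cells sat in few barcodes. Monocytes held 372, 1730, 526 and 590 C1q UMIs in all, and 11, 9, 9 and 8 monocytes with 10 or more C1q UMIs carried 96.2%, 98.0%, 95.6% and 96.6% of them. Dendritic cells held 125, 352, 114 and 65 C1q UMIs, of which 1, 3, 1 and 3 such cells carried 98.4%, 98.6%, 97.4% and 76.9%. The median monocyte and the median dendritic cell had 0 UMIs of C1qa and of C1qb in every library. In these classes a C1q level in CPM therefore describes a handful of cells. In B cells C1q was spread thinly, with 34, 433, 117 and 890 C1q UMIs in 33, 390, 77 and 771 cells. Of these B cells, 0, 1, 2 and 0 had 10 or more C1q UMIs.

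Over all cells outside the macrophage gate, 25, 34, 23 and 39 barcodes (121 in all) had 10 or more C1q UMIs, a limit chosen after the values were seen. They held 14.1%, 5.76%, 12.7% and 4.65% of the C1q UMIs of their libraries. Csf1r was detected in 90.9% of the 121, Ccr2 in 71.9%, and the class II genes H2-Aa and H2-Ab1 in 92.6% and 90.9%. These pooled shares hide differences between libraries, as Ccr2 was in 40% of these barcodes in P-LC24 and 88.2% in P-HC24. Of the macrophage markers, the gate leaves such barcodes at most 3. Adgre1 was detected in 66.1%, Mertk in 43.0%, Cd5l in 22.3%, Folr2 in 19.8% and Prg4 in 11.6%. Cd163 was detected in 7.44%, Ltbp1 in 3.31%, Alox15 in 2.48%, Clec4f in 1.65% and Timd4 in 0.826%. Gata6 and Marco were detected in 0 of 121, which allows up to 2.48% of barcodes with a UMI. C4b was detected in 15.7% of them. C1qc made up 25.0%, 19.7%, 17.9% and 15.8% of their C1q UMIs, below the macrophages in each of the 4 libraries (mean difference -9.46 percentage points ± 2.39 SD, n = 4, two-sided exact permutation test p = 0.125, the smallest this design allows). C1qb made up a larger share than in macrophages in all 4 libraries (7.65 ± 2.96 points, exact permutation p = 0.125). Without the 121 barcodes the log2 difference of C1qa between monocytes and T cells was -0.36, a value that their choice by C1q UMIs lowers by construction.

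**Figure D2:**
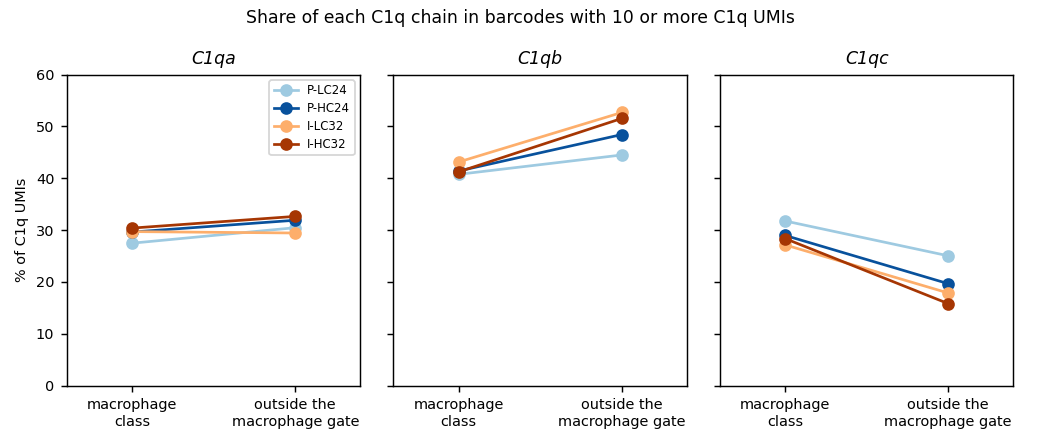
Percent of C1q UMIs (vertical axis) that came from each chain (panels) in macrophages with 10 or more C1q UMIs and in the 121 such barcodes outside the macrophage gate, with 1 point per library and lines that join the points of a library. The C1qc share lies lower outside the gate in all 4 libraries, at 15.8% to 25.0% against 27.2% to 31.8%.

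C4b and the C1q chains had the same leading class. C4b encodes the classical pathway component that is cleaved before C3, and its gene lies on chromosome 17 (34947354 to 34962912, minus strand). It stood at 523, 909, 741 and 951 CPM in macrophages and at 4.94, 7.59, 4.04 and 21.7 in monocytes. Macrophages were far above every other class in each library, by a log2 difference of 7.12 ± 0.54 over monocytes (edgeR adjusted p = 3.64e-09) and 9.60 ± 0.73 over dendritic cells (edgeR adjusted p = 3.41e-09). C4b was the component detected in 93.8%, 92.9%, 90.6% and 98.2% of macrophages, and its per-cell CPM was wide, from 124 at the tenth percentile to 1681 at the ninetieth in P-HC24. Of 410 windows of 91 bases in the last 500 bases of the C4b transcript, 81 (19.8%) occur whole in its paralog C4a, so part of its reads cannot be assigned to 1 of these genes with certainty.

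C3 was the exception among the components. It encodes the central protein on which all activation pathways meet (chromosome 17, 57510964 to 57535155, minus strand). In monocytes it stood at 166, 208, 225 and 122 CPM, in neutrophils at 92.3, 50.7, 25.2 and 70.3, and in macrophages at 30.01, 37.1, 29.5 and 44.5. Every monocyte library was above every macrophage and neutrophil library, and the neutrophil libraries overlapped the macrophages. Macrophages were lower than monocytes by a log2 difference of -2.002 ± 0.37 (edgeR adjusted p = 0.00024). The difference between monocytes and neutrophils was 1.07 ± 0.49 and did not pass the test (edgeR adjusted p = 0.0710), where the neutrophil values of week 32 rest on 2 and 7 UMIs. Without P-LC24 that difference was 1.65 (edgeR adjusted p = 0.0291).

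At equal depth, among cells with at least 2000 UMIs, C3 was also found in a larger share of monocytes than of macrophages. Neutrophils were not read in this way for C3. After each cell was thinned to 2000 UMIs, C3 was detected in 22.1%, 30.2%, 27.7% and 23.6% of monocytes and in 3.2%, 5.3%, 10.0% and 6.7% of macrophages, while unthinned macrophages, which are deeper, reached 53.1%, 44.7%, 45.3% and 52.2%. Within monocytes, C3 had 235 ± 40.5 CPM in classical cells (markers Ly6c2, Ccr2, F13a1, Chil3) and 64.6 ± 20.8 in patrolling cells (Ace, Treml4, Cd300e, Eno3), higher in 4 of 4 libraries (SD, n = 4, exact permutation p = 0.125, the smallest possible, adjusted p = 0.375 over 27 subset tests). Cfp had 166 ± 31.6 and 22.5 ± 12.4 in the same subsets, and C5ar1 89.3 ± 44.4 and 160 ± 61.5, the reverse order in all 4 libraries, each with the same exact p and adjusted p. B cells gave 2, 48, 5 and 43 UMIs of C3, found in only 0.0644%, 0.117%, 0.107% and 0.374% of B cells. Hepatocytes, of which the libraries held 31, 10, 2 and 9, gave 164, 216, 0 and 0 CPM of C3.

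Cfp was the member with the widest range of classes. It encodes properdin, the stabiliser of the alternative pathway convertase (chromosome X, 20791688 to 20797794, minus strand). Macrophages had 813, 1049, 1156 and 1252 CPM, dendritic cells 93.97, 449, 352 and 547, monocytes 83.3, 179, 127 and 243, and neutrophils 90.5, 123, 37.8 and 80.4. Macrophages lay above all other classes without overlap, while dendritic cells, monocytes and neutrophils overlapped.

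The order of Cfp below macrophages was only partly resolved. Macrophages exceeded dendritic cells by 2.03 ± 0.33 on the log2 scale (edgeR adjusted p = 3.38e-05), and dendritic cells exceeded neutrophils by 1.33 ± 0.39 (edgeR adjusted p = 0.00605). Monocytes minus dendritic cells gave -1.16 ± 0.33 (edgeR adjusted p = 0.0102). The call against neutrophils was lost without I-HC32 (edgeR adjusted p = 0.0881) and that against monocytes without P-HC24 (edgeR adjusted p = 0.0807). Monocytes and neutrophils were not resolved (0.16 ± 0.39, edgeR adjusted p = 0.740).

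Cfp was also the only member called between B and T cells. B cells had 9.98, 17.6, 29.3 and 25.3 CPM and T cells 1.03, 5.30, 2.83 and 6.20, without overlap, and the log2 difference was 2.56 ± 0.38 (edgeR adjusted p = 6.98e-06). A UMI of Cfp was found in 4.89%, 10.9%, 15.0% and 16.6% of B cells against 0.905%, 2.60%, 1.30% and 4.07% of T cells, whose median depths were 5838, 6612, 6788 and 8621 UMIs in B cells and 8367, 7544, 6900 and 6302 in T cells. The other 8 members gave no call between these classes, beside 23.1% of all genes called higher in B cells and 21.9% lower.

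Cfb, the catalytic subunit of the alternative pathway convertase (chromosome 17, 35074852 to 35081559, minus strand), had 27.9, 84.1, 80.6 and 114 CPM in macrophages and 36.4, 7.59, 19.2 and 14.5 in monocytes. In P-LC24 monocytes stood above macrophages, and in the other libraries macrophages stood above monocytes. The log2 difference was 2.26 ± 0.36 in favour of macrophages (edgeR adjusted p = 3.40e-05), although the ranges of the classes overlap. Dendritic cells held 1 UMI of Cfb in all libraries together. Hepatocytes, which were not ranked and numbered 31, 10, 2 and 9, held 9, 2, 0 and 2 UMIs of Cfb. In P-LC24, P-HC24 and I-HC32 they held 7.83%, 0.211% and 0.123% of the Cfb UMIs, and 0.206%, 0.0220% and 0.0176% of all UMIs. Macrophages held 23.5%, 71.7% and 84.6% of the Cfb UMIs there, and 2.51%, 12.8% and 15.6% of all UMIs. Cfb thus made up a larger part of hepatocyte UMIs than of macrophage UMIs in these libraries, on 9, 2 and 2 UMIs. Cfb overlaps Nelfe, which lies on the opposite strand.

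The receptors had opposite leading classes. C3ar1, the C3a receptor (chromosome 6, 122823393 to 122833122, minus strand), had 155, 153, 219 and 158 CPM in macrophages, 14.8, 32.1, 23.7 and 25.3 in monocytes, and no UMI in neutrophils of any library. Macrophages and monocytes did not overlap (log2 difference 3.15 ± 0.27, edgeR adjusted p = 2.25e-08). Against 3 UMIs over the 1244059 UMIs of all neutrophils, C3ar1 was at least 66.1-fold higher in macrophages and at least 9.92-fold higher in monocytes.

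C5ar1, the C5a receptor (chromosome 7, 15980668 to 15993465, minus strand), had 785, 822, 618 and 703 CPM in neutrophils, 122, 163, 159 and 234 in macrophages and 121, 93.4, 62.1 and 144 in monocytes. Every neutrophil library was above every macrophage library, and the log2 difference of macrophages minus neutrophils was -2.07 ± 0.22 (edgeR adjusted p = 1.87e-08). Macrophages and monocytes overlapped in CPM, with a log2 difference of 1.09 ± 0.22 (edgeR adjusted p = 0.000195). After thinning to 2000 UMIs, C5ar1 was detected in 70.4%, 73.7%, 65.4% and 70.0% of neutrophils and in 12.9%, 26.6%, 28.0% and 33.9% of macrophages. Cells below that depth are left out of these shares. Dendritic cells had 2.61 to 6.82 CPM of C5ar1 and at most 9.89 of C3ar1.

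Counted over the 9 members, macrophages were higher than monocytes for 8 and lower for 1 (C3), beside 23.7% of all genes called higher and 22.7% lower, and the members' median log2 difference was 3.20. They were higher than dendritic cells, B cells and T cells for all 9, beside 23.1%, 34.4% and 35.8% of all genes called higher and 20.4%, 37.4% and 36.9% lower, and these counts kept all 9 when any 1 library was left out. Against neutrophils 7 were higher and 1 lower (C5ar1), beside 43.3% and 22.5%, and C3 gave no call (log2 difference -0.94 ± 0.54, edgeR adjusted p = 0.139). Monocytes were higher than B cells and T cells for all 9, beside 30.2% and 32.6% of all genes higher and 33.8% and 34.4% lower. Over dendritic cells they were higher for 5 and lower for 1, beside 15.6% and 15.3%, and over neutrophils higher for 4 and lower for 1, beside 39.4% and 18.9%.

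Dendritic cells were higher than neutrophils for 3 members and lower for 2, C3 and C5ar1, beside 40.6% and 21.3% of all genes. They were higher than B cells and T cells for 5 (the C1q chains, Cfp and C5ar1), beside 26% and 28.9% higher and 29.2% and 30% lower, a count that was 1, Cfp, when each gate asked for 1 more marker. Neutrophils were higher than B cells and T cells for C3, Cfp and C5ar1, beside 22.4% and 23.1% higher and 45.2% and 44.8% lower. For C1qa and C1qc, the calls of monocytes over neutrophils were lost without P-HC24 (edgeR adjusted p = 0.0699 and 0.0693). The call of C1qc in monocytes over dendritic cells (1.63 ± 0.58, edgeR adjusted p = 0.0407) was lost without P-HC24, I-LC32 or I-HC32, with log2 differences of 1.81, 1.46 and 1.17 (edgeR adjusted p = 0.125, 0.148 and 0.0770), and that of C1qa in dendritic cells over neutrophils without P-LC24 or P-HC24 (edgeR adjusted p = 0.181 and 0.317).

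Among 43 other complement genes, 14 passed the filter on low counts. Macrophages were higher than monocytes for 9 of the 14 (all genes, 23.7% higher and 22.7% lower), among them Vsig4 (the complement receptor of the immunoglobulin superfamily), and lower for Itgax, a chain of complement receptor 4. Between B and T cells 3 were higher and 2 lower (all genes, 23.1% higher and 21.9% lower): B cells exceeded T cells for Cr2, which encodes complement receptors 1 and 2 in the mouse, and for Cd55 and Itgam, and were lower for Itgax and Itgb2. The pair of genes named in each class by their mean CPM, with no order read between genes, was Itgam (850) and Itgb2 (822), the chains of complement receptor 3, in macrophages, the same genes in monocytes (318 and 403), dendritic cells (166 and 233) and neutrophils (621 and 359), Cd55 (334) and Cr1l (94.1), regulators of the convertases, in B cells, and Cr1l (87.0) and Itgb2 (85.4) in T cells.

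Most C1q and C4b UMIs of a library came from a class that held few of its UMIs. Macrophages held 2.51%, 12.8%, 2.03% and 15.6% of all UMIs, but 65.6%, 70.4%, 63.6% and 82.5% of those of C1qa and 84.3%, 72.9%, 66.8% and 85.6% of those of C4b. Cfp came from macrophages for 53.8%, 64.0%, 32.0% and 75.4% and from B cells, the most numerous class, for 15.5%, 4.99%, 26.9% and 6.18%. C3 came mostly from monocytes in P-LC24 and I-LC32 (58.0% and 75.4%), and in I-HC32 mostly from macrophages (68.9%, against 13.03% from monocytes). Cfb came from monocytes for 51.3% and from macrophages for 23.5% in P-LC24, and from macrophages for 84.6% in I-HC32. For C5ar1 the leading source was neutrophils in P-LC24 (50.7%) and macrophages in P-HC24 and I-HC32 (54.4% and 80.7%), while in I-LC32 macrophages held 33.2% and cells of no class 35.5%.

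**Figure D3:**
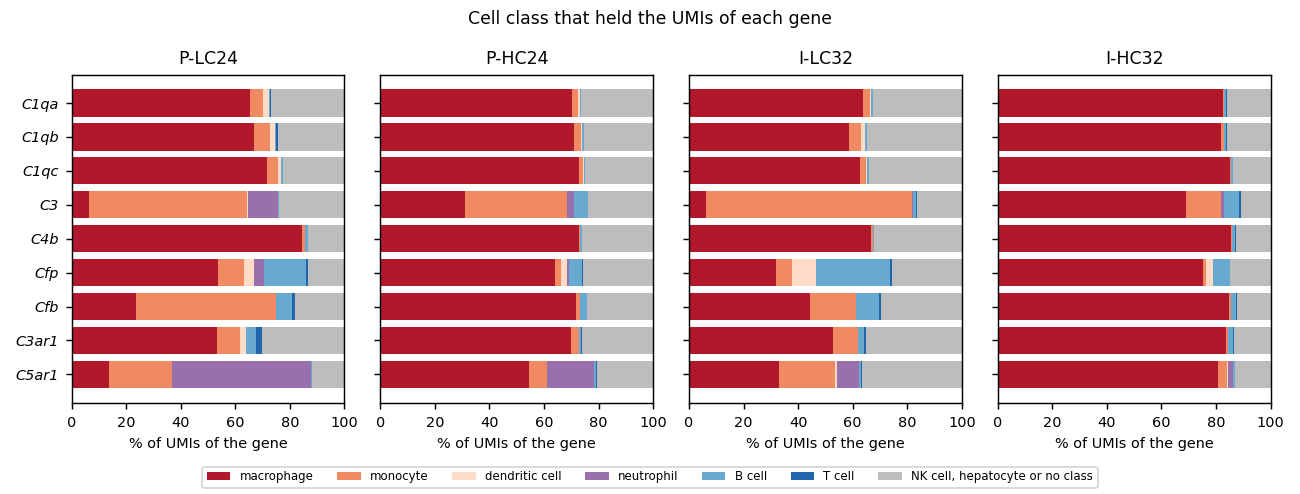
Percent of the UMIs of each member (horizontal axis) that came from each class, with 1 stacked bar per member and 1 panel per library. NK cells, hepatocytes and cells of no class are grey. Macrophages supply most C1q and C4b in every library, whereas the leading source of C3 and C5ar1 changes between libraries.

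Within macrophages the members spread to different degrees. The tenth and ninetieth percentiles of per-cell CPM in I-HC32 were 1404 and 4962 for C1qb, 402 and 1597 for C4b and 673 and 1853 for Cfp, with all cells but few above 0. C3 and Cfb were 0 at the tenth percentile in every library. The top 10% of macrophages held 40.5% to 48.3% of C3 UMIs and 17.9% to 22.6% of Cfp UMIs.

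**Figure D4:**
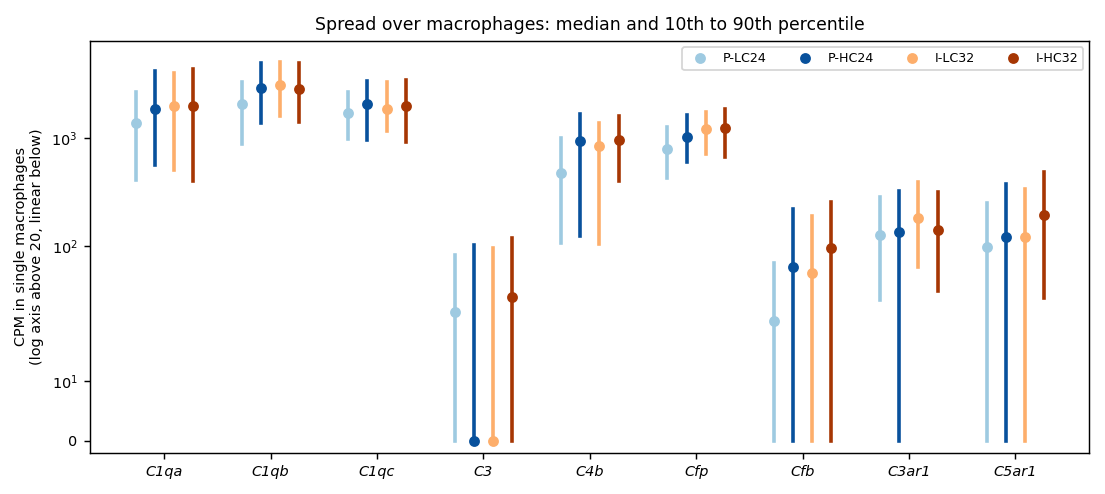
Per-cell CPM of each member in macrophages (log axis above 20, linear below), with the median as a point and a line from the tenth to the ninetieth percentile for each library. Cfp and the C1q chains are above 0 along the whole line, and C3 and Cfb reach 0 at its lower end.

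Macrophages were also split by detection of Timd4 and of Gata6. Cfb was higher in macrophages with Timd4 than without in 4 of 4 libraries (87.3 ± 35.0 against 68.9 ± 33.1 CPM, SD, n = 4, exact permutation p = 0.125). C4b was higher with Gata6 than without in 4 of 4 (797 ± 195 against 677 ± 257), C3 too (36.5 ± 6.39 against 27.9 ± 13.98), and C1qa was lower in 4 of 4 (2011 ± 392 against 2437 ± 323), each with exact permutation p = 0.125. In P-LC24 these subsets rest on 5 macrophages with Timd4 and 3 without Gata6. All these have an adjusted p of 0.375 over the 27 subset tests, and the design allows none below 0.125 unadjusted. Detection of either marker also depends on a cell's depth.

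The first diet comparison asked how P-HC24 differed from P-LC24. Each ratio is given on the log2 scale with an exact Poisson 95% interval, which covers counting error in 2 libraries only, and a member was counted as higher or lower at 1.2-fold. In macrophages, 8 members were higher in P-HC24, none was lower and C3ar1 was within the fold, beside 20.1% of all genes higher and 39% lower. The members' median was 0.42 against -0.14 over all 6728 genes compared. The largest ratio was that of Cfb, for which P-LC24 had 27 UMIs and P-HC24 had 681 (1.59, 1.04 to 2.20), followed by C4b (0.80, 0.67 to 0.93), C1qa (0.59, 0.51 to 0.67) and C1qb (0.50, 0.44 to 0.57).

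The remaining ratios in macrophages were smaller. C5ar1 had 0.42 (0.14 to 0.70), Cfp 0.37 (0.26 to 0.47), C1qc 0.35 (0.28 to 0.42), C3 0.30 (-0.25 to 0.91) and C3ar1 -0.02 (-0.27 to 0.23). Macrophages of P-LC24 were 32 cells with a median depth of 28202 UMIs, against 378 cells and 21087 UMIs in P-HC24. As the mean count of UMIs in a macrophage, not scaled to depth, 2 members were higher and 1 lower, with Cfb at 1.09, C4b at 0.30 and C3ar1 at -0.52, while C1qa (44.1 and 47.1 UMIs per cell) and C1qb (65.4 and 65.9) were nearly level. Timd4 was detected in 15.6% of the macrophages of P-LC24 and 44.97% of those of P-HC24, and the part of depth and of this share in the ratios was not tested.

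In Int, I-HC32 was compared with I-LC32, after both groups had eaten the low level for 8 weeks. Macrophages had 4 members higher and 1 lower, beside 18% of all genes higher and 29% lower, with a members' median of 0.12 against -0.08. The higher members were C3 (0.59, 0.11 to 1.11), C5ar1 (0.56, 0.35 to 0.78), Cfb (0.50, 0.21 to 0.81) and C4b (0.36, 0.26 to 0.46), and C3ar1 was lower (-0.47, -0.66 to -0.29). C1qa (-0.00, -0.06 to 0.05), C1qb (-0.10, -0.15 to -0.05), C1qc (0.03, -0.03 to 0.09) and Cfp (0.12, 0.04 to 0.19) stayed within the fold. Median depths were 22309 and 20690 UMIs and Timd4 was detected in 34.0% and 62.1% of these macrophages.

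Outside macrophages fewer members passed the filter of 100 UMIs and of a UMI in 10% of the cells of either library, and the counts describe those only. In monocytes 5 passed in Prog, of which 4 were higher and 1 lower (beside 18% and 37.9% of all genes), and 6 passed in Int, of which 5 were higher and 1 lower (beside 21.3% and 22.1%). C1qb passed through the high cholesterol library alone in both comparisons, and C1qa and C1qc did so in Int, so their direction was largely fixed by the filter. C3 in monocytes was 0.32 (0.09 to 0.56) in Prog and -0.88 (-1.21 to -0.57) in Int, and C5ar1 was -0.37 (-0.68 to -0.06) and 1.21 (0.83 to 1.59). The ratios of C1qb were 2.13 and 1.48, and those of Cfp 1.10 and 0.93. With the C1q-high barcodes left out no C1q chain passed the filter in monocytes, and Cfp was 0.73 and 0.05. Summed CPM of 4 patrolling monocyte markers in monocytes was 638, 525, 293 and 567 over the 4 libraries, and its part in the ratios was not tested.

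**Figure D5:**
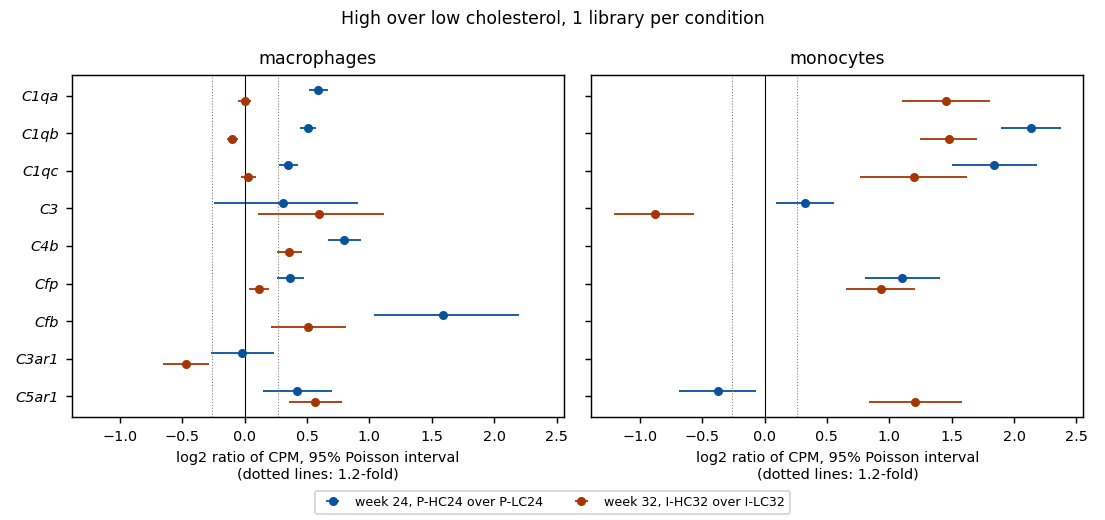
Log2 ratio of CPM (horizontal axis), high over low cholesterol group, for each member in macrophages and in monocytes at week 24 (P-HC24 over P-LC24) and at week 32 (I-HC32 over I-LC32), with exact Poisson 95% intervals of counting error and dotted lines at 1.2-fold. In macrophages Cfb has the largest ratio at week 24 (1.59), and in monocytes C3 and C5ar1 lie on opposite sides of 0 at the 2 times.

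Cfp had a ratio in each of the other classes but week 32 neutrophils. In dendritic cells it was 2.26 (1.84 to 2.69) in Prog and 0.64 (0.44 to 0.83) in Int, where both members that passed were higher in Prog (beside 27% and 40.5%), C1qb having passed in both comparisons through the high cholesterol library alone, and Int had 1 higher and 1 lower, C1qb at -0.42 (-0.94 to 0.08), beside 21.9% and 22.3%. In B cells Cfp alone passed, at 0.82 (0.60 to 1.05) in Prog, a higher call beside 15.1% and 44.3% for which it passed the filter through P-HC24 alone, and at -0.21 (-0.33 to -0.10) in Int, within the fold beside 13.2% and 7.16%. In neutrophils Cfp was 0.44 (-0.12 to 1.01) in Prog, the 1 member higher of 2 that passed (beside 25.8% and 24%), and C5ar1 was 0.07 (-0.13 to 0.26) in Prog and 0.19 (-0.36 to 0.74) in Int, within the fold both times (beside 19.4% and 49.8% in Int).

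Over all kept cells, C1qa was 2.84 (2.78 to 2.91), C1qb 2.78 (2.72 to 2.83), Cfp 2.47 (2.40 to 2.55) and C5ar1 0.79 (0.68 to 0.91) in Prog. These 4 members passed the filter through P-HC24 alone, so a higher ratio was largely fixed by it and nothing is read from their number (all genes, 16.5% higher and 47.5% lower). In Int C4b was 2.94 (2.86 to 3.02), C1qa 2.56 (2.52 to 2.61), C1qc 2.52 (2.48 to 2.57), C1qb 2.36 (2.32 to 2.39) and Cfp 1.82 (1.77 to 1.87), where C4b and the C1q chains likewise passed through I-HC32 alone (all genes, 13.4% higher and 12.2% lower). Macrophages made up 0.649% (low) and 5.79% (high) of kept cells at week 24, and 0.760% and 8.19% at week 32. With the classes weighted by their shares in the low cholesterol library, C1qa fell to 1.19 in Prog and 0.39 in Int, Cfp to 1.10 and 0.17, and C5ar1 to 0.12 in Prog. The sum over all cells does not by itself separate more macrophages from more RNA per macrophage. Within macrophages the ratios were 0.59 in Prog and -0.0015 in Int for C1qa. Those of Cfp were 0.37 and 0.12, and that of C5ar1 was 0.42 in Prog.

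Genes with the most similar pattern over 5 classes and 4 libraries (Pearson correlation of log2(CPM + 1) over 20 values that share libraries and classes, a description) were Snx24 (0.94), Mertk (0.93) and Emilin1 (0.93) for C1qa, Kcnk13, Agmo and Guca1a (0.97 each) for C1qb, and Snx24 (0.96) and Mfsd5 (0.95) for C1qc. For C4b they were Serpinb2 (0.98), Calml4 (0.97) and Alox15 (0.96), for C3 Tmem38b (0.96), Naip2 (0.94) and Tlr13 (0.93), and for Cfp Man2b1 (0.94), Ptgs1 (0.92) and Hexa (0.91). For Cfb they were Fabp4 (0.93), Saa3 (0.93) and Prtn3 (0.91), for C3ar1 Msr1 (0.99), Emilin1 (0.99) and Mertk (0.96), and for C5ar1 Pygl, Fas and Clec4d (0.98 each).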

How the data were processed

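Each of the 4 libraries pooled 12 FNA biopsies from 3 mice. Per gene and barcode, the files hold unprocessed UMI counts that the authors deposited after alignment to GRCm39 with Cell Ranger 9.0.1. Seurat 5.3 is also named in the submitters' processing notes. These counts hold no normalization. The 9 members, the lists and the tests were chosen with earlier results of these data known.

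Genes in at least 3 barcodes (23619) and cells with at least 500 UMIs, 300 genes and at most 10% mitochondrial UMIs were kept. Scrublet scores (scanpy 1.11.5) were used to remove the highest 0.8% per 1000 cells as doublets, 212 to 440 barcodes per library. A cell entered a class when it held UMIs of at least 4 of 12 macrophage, 4 of 9 monocyte, 3 of 9 dendritic cell, 5 of 9 neutrophil, 3 of 5 B cell or 4 of 7 T cell markers and passed no other gate, except that B and T cells could pass the dendritic cell gate and T cells the NK cell gate. The marker numbers were set after marker counts had been seen. Kept cells in no class numbered 225 to 613 per library, among them cells that passed more than 1 gate.

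UMIs were summed per class and library. The 15 class pairs were tested with edgeR 4.0.16 (TMM scaling, library as a term, adjusted p under 0.05), and DESeq2 1.42.0 was an alternative. Paired subsets were compared with exact permutation tests. Diet ratios had no test: they carry exact Poisson intervals (95%, counting error only), with at least 100 UMIs over both libraries, a UMI in 10% of cells of either, and calls at 1.2-fold. Shares carry exact Clopper-Pearson intervals. A level of 0 was set against 3 UMIs. All 9 members were named, with the 2 highest of 43 other complement genes per class and the 3 genes most like each member, of which 1 is not reported here. Gene positions are those of GENCODE on GRCm39, and promoters come from RefSeq on GRCm38.p6. Tests were checked on simulated data. Alternatives covered scaling, tool, filters, doublets, gates, leaving out a library, fold, denominator, cell weights, centring, free RNA, class shares and thinning. Software versions were R 4.3.3, matplotlib 3.10.9, pandas 2.3.3, scipy 1.17.1, numpy 2.4.6 and Python 3.11.15.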

Additional observations from a re-analysis of the deposited data

Results flagged for a closer look

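In 8 of 53 groups of 4 libraries, 1 library stood apart from the other 3 by Dixon's ratio test at the 95% level, where chance gives about 1 in 20 groups. P-LC24 was low in macrophages for C1qa (1461 CPM) and C1qc (1689 CPM), and I-LC32 was high for C3ar1 (219 CPM). In dendritic cells P-HC24 was high for C1qb (271 CPM), P-LC24 for C3ar1 (9.89 CPM) and I-HC32 for C5ar1 (6.82 CPM), and Cfb was found in I-HC32 only (1.14 CPM, 1 UMI). In T cells I-HC32 was high for Cfb at 0.577 CPM.

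The diet ratio passed 1.2-fold on opposite sides in Prog and Int for 3 members, and the difference between the comparisons was not tested. In monocytes the log2 ratio of C3 was 0.32 in Prog and -0.88 in Int, and that of C5ar1 was -0.37 and 1.21. In dendritic cells that of C1qb was 1.58 and -0.42, with the interval of the second including 0. The ratios of Cfp in B cells (0.82 and -0.21) and of C1qb in macrophages (0.50 and -0.10) also lay on opposite sides of 0, with the second of each within 1.2-fold.

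Kept cells in no class, which enter no comparison of classes, held 24.4%, 25.4%, 33.8% and 15.3% of the C1q UMIs, in the order used above. Barcodes that passed the macrophage gate and another gate numbered 6, 93, 27 and 69 and held 16.2%, 22.1%, 24.9% and 11.1% of these UMIs.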

How the results depend on the processing

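No paired analysis was possible because, between diets, each condition has 1 library and the labels give no replicate numbers; class differences and subsets were compared within libraries. Leaving out each library in turn gave 90 to 95 calls over the 135 tests of a member in a class pair, 3 to 6 called members for monocytes minus neutrophils (3 without P-HC24), 4 to 6 for monocytes minus dendritic cells, 4 to 5 for dendritic cells minus neutrophils and 5 to 6 for dendritic cells minus B cells. Of 1755 values of a member in a class pair under an alternative, 1678 kept direction and side of the threshold. DESeq2 size factors moved the median of all genes by 0.14 log2 for macrophages minus monocytes and the share of calls that are higher from 51.1% to 61.8%, and for monocytes minus dendritic cells that share from 50.5% to 34.6%. Against neutrophils the median moved by 0.29 for macrophages, 0.15 for monocytes and 0.32 for dendritic cells. For neutrophils minus B cells and minus T cells it moved by -0.28 and -0.34. Under the main scaling the median of macrophages minus neutrophils was already 0.90.

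Leaving out the C1q-high barcodes was chosen after seeing the data. It left 2 called members for monocytes minus neutrophils (5 in the report), 3 for dendritic cells minus neutrophils (5), and 1 each for dendritic cells minus B cells and minus T cells (5 each). Its reversed log2 differences were, for C1qa, -1.53, -0.17 and -0.36 in monocytes minus neutrophils, B cells and T cells and -2.62, -1.27 and -1.45 in dendritic cells minus the same classes, for C1qc -0.38 in monocytes minus neutrophils and -0.53 and -0.59 in dendritic cells minus B cells and T cells, and for C1qb -0.079 in dendritic cells minus neutrophils. With 1 more marker per gate the same counts were 3, 1 and 1 for dendritic cells, and in dendritic cells C1qa turned to -1.79, -0.81 and -1.23 against neutrophils, B cells and T cells, C1qc to -0.42 and -0.82 against B cells and T cells, and C1qb to -0.36 against T cells. Without a filter on low counts B cells minus T cells had 2 called members (1). The C1q-high barcodes were chosen by their C1q, so the loss of C1q calls without them follows from that choice. The cause of the other changes was not tested.

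Counts of members past the diet fold moved as follows. At 1.5-fold, macrophages had 3 higher in Prog, and 1 higher and 0 lower in Int, monocytes 0 lower in Prog, dendritic cells 0 lower in Int and neutrophils 0 higher in Prog. With mean UMIs per cell, macrophages in Prog had 2 higher and 1 lower, with C1qc at -0.15, C3 at -0.19, Cfp at -0.13 and C5ar1 at -0.080, and neutrophils 1 higher in Int. With 20 UMIs, monocytes had 2 lower in Prog and 2 lower in Int, and neutrophils 1 lower in Prog. Relative to the median ratio, monocytes had 0 lower in Prog and neutrophils 1 higher in Int. With the mean of per-cell CPM, monocytes had 0 lower in Prog, dendritic cells 2 higher and 0 lower in Int, with C1qb at 0.80, and neutrophils 1 higher in Int. With 1 more marker, monocytes had 3 higher in Int and dendritic cells 1 higher in Prog and 0 lower in Int. With C1q-high barcodes left out, monocytes had 2 higher in Prog and 1 in Int, dendritic cells 1 higher in Prog and 0 lower in Int, and all kept cells 1 higher in Prog. For all kept cells the set left out was wider than the 121 barcodes outside the macrophage gate. With a mitochondrial limit of 5%, neutrophils and B cells had 1 higher in Int, B cells 0 higher in Prog, and all kept cells 8 in both. Without doublet removal neutrophils had 1 higher in Int. With T cell CPM subtracted, B cells had 1 lower in Int, and with the class shares of the low cholesterol library all kept cells had 2 higher in Int. A UMI was found in over 50% of macrophages of every library for 5 members at 2000 UMIs and for 8 unthinned.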
